A study of Mus musculus with 30 samples.

Results

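Wild type CD8 T cells of the spleen were compared with wild type CD8 T cells of the thymus. The 6 libraries were chosen by their labels: 3 wild type spleen CD8 libraries, numbered 67, 70 and 71, and 3 wild type thymus CD8 libraries, numbered 1, 2 and 3. They are 6 of the 30 bulk RNA sequencing libraries of the series. It covers sorted thymus and spleen T cells of wild type mice and of mice with a Prmt5 knockout directed to T cells. Prmt5 encodes an arginine methyltransferase. All mice carried the strain label C57BL/6. Wild type mice are labelled with no transgene, and the knockout mice (CKO) carried CD4-Cre with both Prmt5 alleles floxed. The CKO libraries served for 1 later comparison, with 3 spleen CD8 and 3 thymus CD8 libraries, and the wild type CD4 libraries for another, with 3 per tissue. The labels give no age, no sex and no link between a spleen and a thymus number, and name no group that carries CD4-Cre alone.

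T cells develop in the thymus. Precursors rearrange the T cell receptor genes with the recombinase Rag1/Rag2, divide, and pass through a stage that carries both CD4 and CD8 (double-positive, DP). Cells whose receptor binds MHC class I become CD8 single-positive cells, stop rearranging, gain the egress receptor S1pr1 and the homing receptor Ccr7, and leave for blood, spleen and lymph nodes, where they rest as naive cells or turn into memory and effector cells. CD8 cells without CD4 in the thymus also include immature single-positive cells, which precede the DP stage, divide, and carry CD8 before CD4. The labels do not give the markers of the sort, and the shares of mature and immature cells in the thymus libraries were not measured. In bulk samples, fewer cells of a type and less RNA per cell cannot be told apart.

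Total counts were 27192847, 26073485 and 26485257 in the spleen libraries, against 32917906, 34509130 and 29430576 in the thymus libraries. The spleen and the thymus CD8 libraries were deposited in separate tables that list the same 46095 gene symbols, so tissue and table cannot be told apart, and a test for differences of more than 2-fold was used as the main measure. Sex also went with tissue. The Y-linked Ddx3y was at most 0.221 CPM in the spleen libraries, against at least 159 CPM in the thymus libraries, where CPM is a gene's share of the library's counts, scaled to a common total. Xist, the long RNA of the inactive X chromosome, was at 961, 1031 and 1056 CPM in the spleen, against 3.67, 4.20 and 5.14 CPM in the thymus, here after TMM scaling of the library totals. All 3 spleen libraries thus had a female pattern and all 3 thymus libraries a male one. Of 473 genes of chromosomes X and Y tested, 41 (8.67%) were more than 2-fold higher and 76 (16.1%) lower in the spleen, close to the shares of all genes given below. Nearly all of these are X genes: of 7 Y genes tested, 6 were more than 2-fold lower. The part of sex in the differences of other chromosomes was not tested.

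Some transcripts that T cells make in quantity were near 0 in both CD8 tables. Trbc1 and Trbc2, the constant parts of the receptor beta chain, had 0 counts in all 6 libraries, and Cd2, Runx3, H2-D1, Tap1 and Psmb8 were all under 15 CPM. Of 20730 symbols shared with the table of thymus DP and CD4 cells, 94 with a mean of at least 50 CPM there were more than 16-fold lower in both CD8 tables. Members of the lists below among these 94 were Cd2, Igtp, Hist1h1c, Psmb8, Psmb9, Tap1, Tap2, Tapbp and H2-D1, and those that passed the filter are counted there.

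The 3 genes that mark the contrast separated the tissues without overlap, as most genes did. In 36.9% of all genes every spleen library was above every thymus library, and in 40.1% below. Rag1, a subunit of the V(D)J recombinase, had 0 counts in the 3 spleen libraries, against 755, 688 and 767 CPM in the thymus libraries, where CPM uses library sizes scaled by TMM, here and below unless stated. Against a floor of 3 counts over the spleen group this is at least 19060-fold lower in the spleen. Mki67, a nuclear protein of dividing cells, was at 78.0, 66.0 and 63.2 CPM in the spleen, against 2106, 2242 and 2297 CPM in the thymus, a log2 fold change of -5.00 ± 0.09 (SE; adjusted p 1.08e-12 for more than 2-fold). Ccr7, the receptor that guides naive T cells into lymph nodes, was at 697, 663 and 826 CPM in the spleen, against 228, 256 and 249 CPM in the thymus (log2 1.58 ± 0.08, adjusted p 9.69e-06). The thymus libraries thus held Rag1 and division transcripts together with Ccr7.

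Set beside the wild type DP libraries, which were counted in another table, the thymus CD8 libraries had less Rag1 (703 to 785 CPM of the library total, against 3117 to 3994 CPM in DP), more Mki67 (2159 to 2353 CPM, against 963 to 1482 CPM) and more Ccr7 (234 to 262 CPM, against 6.22 to 9.74 CPM). These levels are a description across tables, with no test.

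**Figure D1:**
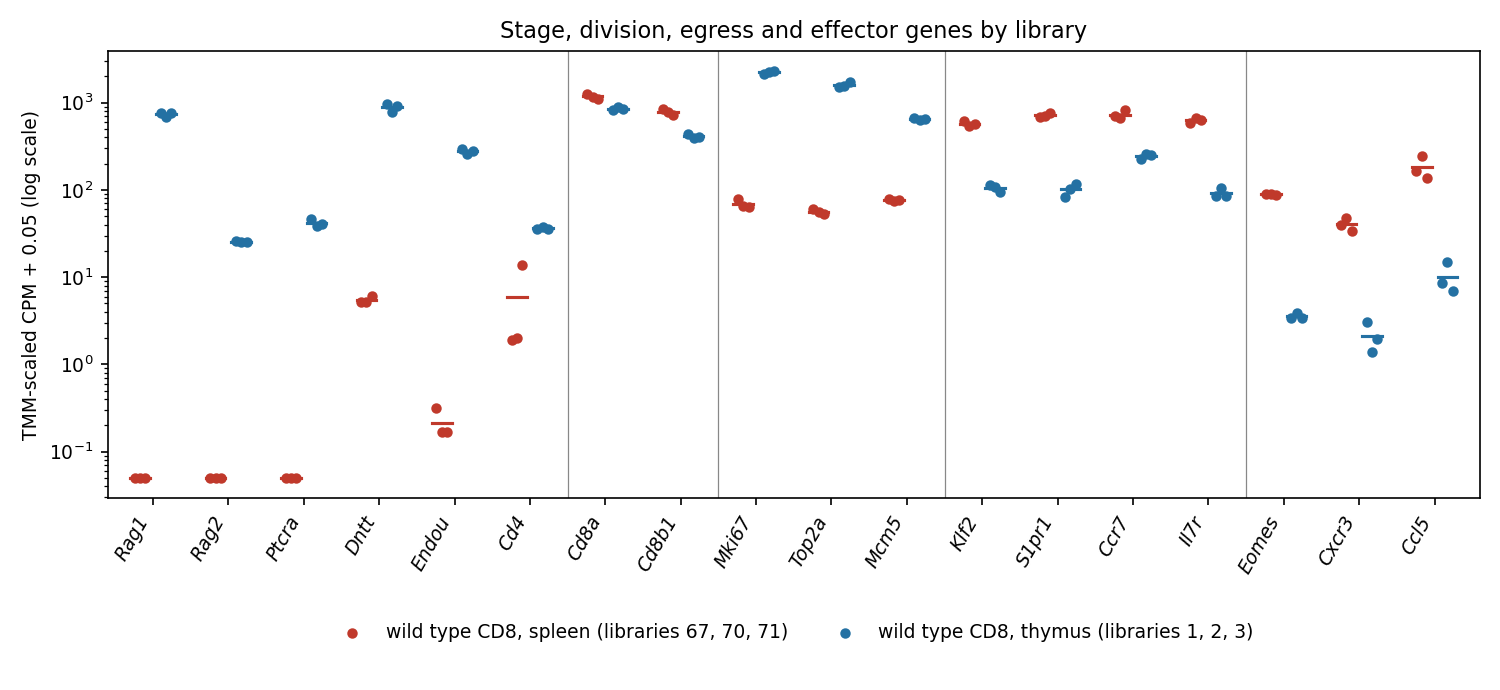
Levels of 18 genes in each wild type CD8 library, on a log axis of TMM-scaled CPM with 0.05 added, spleen in red on the left of each pair and thymus in blue on the right. Points are libraries and short lines are arithmetic means of 3. Spleen points lie at the bottom of the axis for Rag1, Rag2 and Ptcra, which had 0 counts there, while Cd8a and Cd8b1 lie close together in both tissues.

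The label of both groups was checked against the CD8 coreceptor. Cd8a was at 1256, 1170 and 1106 CPM in the spleen, against 819, 902 and 844 CPM in the thymus (log2 0.46 ± 0.06). Cd8b1 was at 856, 777 and 727 CPM in the spleen, against 435, 395 and 400 CPM in the thymus (log2 0.94 ± 0.07). Both were higher in the spleen by the test for any difference (adjusted p 2.12e-05 and 8.35e-08), and neither passed the 2-fold test. Cd3d, Cd3e and Cd3g, the CD3 chains, differed by a log2 of 0.67, 0.31 and 0.29.

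Over all genes, 14637 passed the filter on low counts. Of these, 5153 (35.2%) were higher and 5656 (38.6%) lower in the spleen at an adjusted p under 0.05. Tested against a fold of 2, 1421 genes (9.71%) were higher and 2299 (15.7%) lower in the spleen, and such genes are called large below. All counts of calls in the lists below are to be read beside these shares of all genes. At a tested fold of 4 the counts were 355 higher and 1148 lower. The median log2 fold change of all genes was -0.03, so the groups of genes below stand against a centre close to 0. In 5405 genes (36.9%) every spleen library was above every thymus library, and in 5868 genes (40.1%) below. The spleen and thymus libraries, which also differ in table and sex, lay apart on the first principal component, which held 93.3% of the variance.

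**Figure D2:**
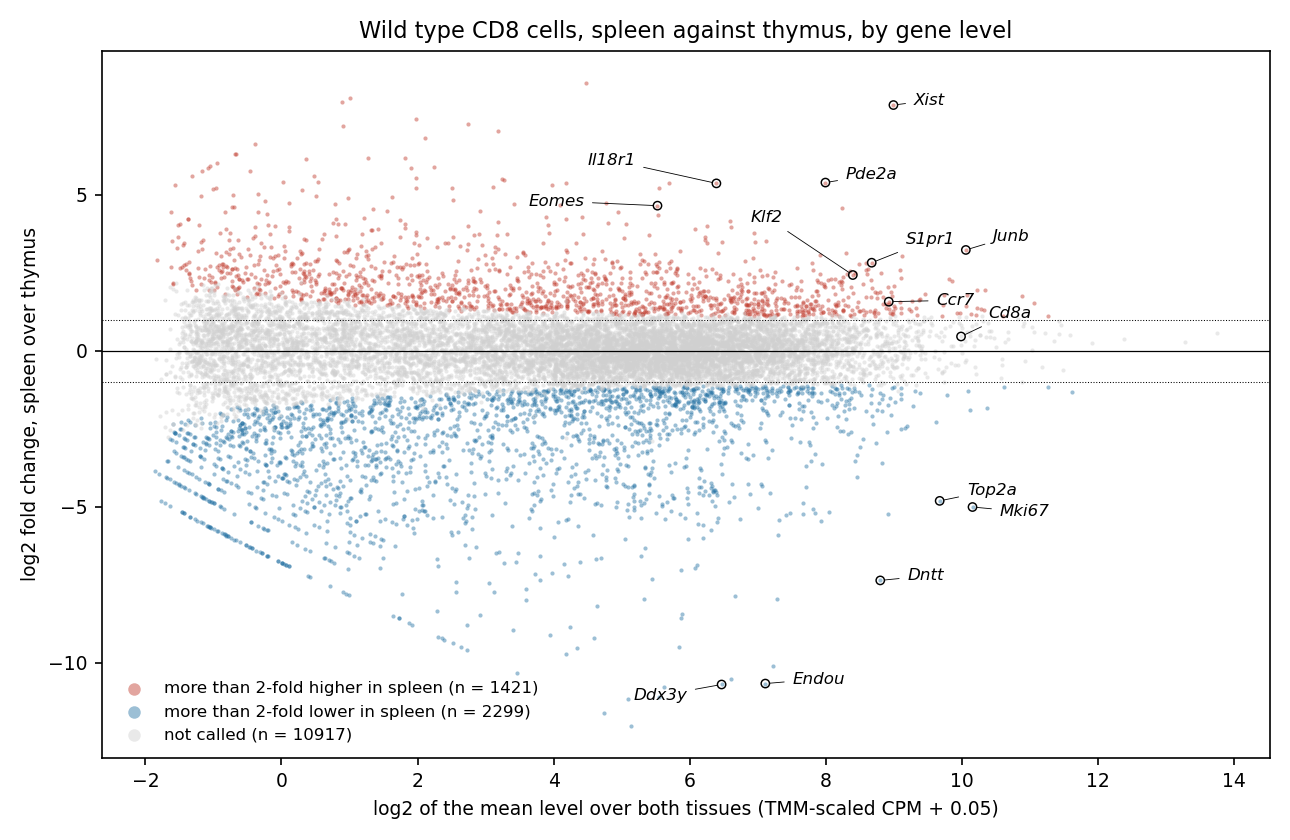
Each point is 1 gene: the x axis is the log2 of its mean level over both tissues (TMM-scaled CPM + 0.05) and the y axis its log2 fold change, spleen over thymus. Red marks 1421 genes more than 2-fold higher in the spleen, blue 2299 genes more than 2-fold lower and grey the others. Dotted lines mark a fold of 2, and 165 genes with 0 counts in the spleen and 6 with 0 in the thymus are not drawn. Large differences occur at every level, and the blue cloud reaches farther from 0 than the red one.

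The largest falls included the genes of receptor rearrangement. Of the 12 genes with the largest fold lower in the spleen, 7 had 0 counts in all spleen libraries: Rag1, Rag2, Ptcra (the surrogate alpha chain of the pre-T cell receptor), Syt13, Gfra1, Tenm1 and Prss57. Syt13, a synaptotagmin, was at 238, 226 and 204 CPM in the thymus libraries, which makes it at least 5794-fold lower in the spleen. Gfra1, a receptor of glial-derived neurotrophic factor, was at 99.3, 96.6 and 103 CPM in the thymus, at least 2581-fold lower in the spleen. Nwd1 had 1 count in the spleen group, for a thymus to spleen ratio of 5474 with a 95% counting interval of 982 to 216200. Bahcc1 had 3 counts there, for a ratio of 2417 (827 to 11720), and Arsi was at 0.152, 0 and 0 CPM in the spleen, against 97.8, 94.4 and 102 CPM in the thymus. The remaining genes of this set, Kdm5d and Eif2s3y, lie on the Y chromosome and go with the sex of the libraries.

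The largest rises included receptors and enzymes of peripheral T cells. Xist led them and goes with the sex of the libraries. Pde2a, a phosphodiesterase that breaks down cAMP and cGMP, was at 486, 484 and 525 CPM in the spleen, against 12.2, 11.6 and 11.8 CPM in the thymus (log2 5.39 ± 0.07, adjusted p 2.70e-13). Cd55, a surface inhibitor of complement, was at 101, 110 and 93.7 CPM in the spleen, against 2.76, 1.73 and 2.92 CPM in the thymus (log2 5.37 ± 0.14). Il18r1 and Il18rap, the chains of the interleukin-18 receptor, were higher by a log2 of 5.37 ± 0.09 and 5.22 ± 0.15. The other genes of this set were Samd3, Ust, Sntb1, Plekha6, Lrrc75b, Eomes and Sidt1, with log2 fold changes from 4.57 to 5.39.

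Genes of the DP stage were lower in the spleen. Of 18 listed genes, 15 (83.3%) were called large and lower, against 15.7% of all genes, and 0 higher. The median log2 fold change was -6.15. Dntt, the template-free polymerase that adds bases at receptor joints, was at 5.12, 5.15 and 5.97 CPM in the spleen, against 958, 778 and 924 CPM in the thymus (log2 -7.36 ± 0.11, adjusted p 3.66e-13). The 2 tissues were apart for Dntt in every library, as for 40.1% of all genes in this direction. Its residual level in the spleen was even across the libraries. Endou (log2 -10.66 ± 0.14), Arpp21 (-10.09 ± 0.17), Aqp11 (-7.95 ± 0.16) and Cd24a (-5.43 ± 0.09) were lower too, and Cd24a encodes the heat stable antigen that thymocytes lose as they mature. Bcl2l1, the survival gene of DP cells, was lower by a log2 of -1.75 ± 0.08.

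The 3 listed DP genes that were not called large were Tcf12, Ccr9 and Cd1d1. Tcf12, which encodes the E protein HEB, was lower by the test for any difference (log2 -1.08 ± 0.05) and missed the 2-fold test (adjusted p 0.0755). Ccr9, a chemokine receptor of thymocytes and gut-homing T cells, was at 151, 116 and 114 CPM in the spleen, against 221, 249 and 207 CPM in the thymus (log2 -0.83 ± 0.10). Cd1d1 overlapped between the tissues, with 35.2 to 40.9 CPM in the spleen and 34.0 to 38.2 CPM in the thymus.

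Coreceptor and lineage regulators had large calls in both directions, with shares not far from those of all genes. Of 17 listed genes, 1 (5.88%) was called large and higher and 4 (23.5%) lower, against 9.71% and 15.7% of all genes, with a median of -0.07. Cd4 was at 1.86, 1.95 and 13.7 CPM in the spleen, against 35.7, 37.9 and 35.5 CPM in the thymus (log2 -2.64 ± 0.51, adjusted p 0.00628). Library 71 held most of the spleen reads: without it the log2 fold change was -4.25. With DESeq2 the Cd4 call was lost (adjusted p 0.305). Myb, a transcription factor of progenitors and DP cells, was at 143, 148 and 178 CPM in the spleen, against 683, 646 and 656 CPM in the thymus (log2 -2.08 ± 0.08). Patz1, a zinc finger protein that acts on the coreceptor genes, was lower (log2 -1.45 ± 0.06), as was Runx1 (-1.18 ± 0.08, adjusted p 0.0264), whose call was lost with DESeq2 (adjusted p 0.187) and limma (0.199). Zbtb7b, the factor ThPOK of the CD4 lineage, was higher by a log2 of 2.42 ± 0.29, at 4.72 to 6.28 CPM in the spleen and 0.564 to 1.36 CPM in the thymus. Bcl11b and Tox, needed for T lineage commitment and selection, had log2 fold changes of -0.06 ± 0.05 and -0.07 ± 0.09, and their libraries overlapped. Gata3 was at 53.6 to 59.6 CPM in the spleen and 80.4 to 92.2 CPM in the thymus, a log2 of -0.66 ± 0.07.

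Division genes were lower in the spleen without an exception among those listed. All 33 listed mitosis genes and all 36 listed genes of DNA replication passed the low count filter and were called large and lower, with medians of -4.72 and -3.22. Among mitosis genes, Top2a, the topoisomerase that untangles chromosomes, was at 60.2, 55.5 and 53.5 CPM in the spleen, against 1496, 1534 and 1704 CPM in the thymus (log2 -4.81 ± 0.08, adjusted p 8.27e-13). Ccna2, cyclin A2, was at 11.1, 9.76 and 10.8 CPM in the spleen, against 386, 405 and 401 CPM in the thymus (log2 -5.23 ± 0.07). The checkpoint kinases Bub1 and Bub1b differed by a log2 of -5.48 ± 0.08 and -5.25 ± 0.06, Birc5 (survivin) by -4.61 ± 0.07 and the kinesin Cenpe by -4.54 ± 0.07.

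Replication genes followed. Uhrf1, which keeps DNA methylation through replication, was at 25.01, 23.96 and 26.29 CPM in the spleen, against 960, 887 and 970 CPM in the thymus (log2 -5.23 ± 0.07). Mcm10, a factor that starts replication forks, was at 2.69, 3.20 and 2.79 CPM in the spleen, against 119, 116 and 121 CPM in the thymus (log2 -5.36 ± 0.09). The ribonucleotide reductase subunits Rrm2 and Rrm1, which make DNA building blocks, differed by a log2 of -5.05 ± 0.09 and -3.54 ± 0.06. E2f2, an E2F transcription factor, differed by -4.37 ± 0.07 and the chromatin assembly factor Chaf1a by -4.28 ± 0.07. Of 70 histone genes of the replication-dependent clusters, most of whose transcripts lack a poly(A) tail and are poorly captured by poly(A) selection, 42 passed the filter, 21 were called lower and 1 higher.

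Promoter windows of these genes are shown because the whole group moved together. Mitosis genes often carry a cell cycle homology region (CHR, TTTGAA) and replication genes an E2F-type site (TTTGGCG or TTTCGCG). In RefSeq windows of 250 bases before to 50 bases after the start (GRCm38.p6), TTTGAA on either strand stood in 24 of the 29 mitosis genes with a window (82.8%), against 5466 of 27025 symbols (20.2%). The E2F-type letters stood in 13 of 30 replication genes (43.3%), against 725 of 27025 symbols (2.68%). A match describes the letters and is not a measured site. Below are the 250 bases before the start of 2 mitosis genes (Top2a, chr11:99024190-99024439, minus strand; Ube2c, chr2:164769679-164769928, plus strand) and 2 replication genes (Chaf1a, chr17:56040166-56040415, plus strand; Mcm5, chr8:75109259-75109508, plus strand), 5′ to 3′ along the gene, with matches on either strand in capitals.
Top2a: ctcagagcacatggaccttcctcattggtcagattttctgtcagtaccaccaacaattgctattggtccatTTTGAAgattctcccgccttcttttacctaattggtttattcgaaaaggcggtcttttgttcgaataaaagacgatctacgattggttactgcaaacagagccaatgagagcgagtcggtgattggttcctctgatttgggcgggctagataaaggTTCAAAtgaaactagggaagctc
Ube2c: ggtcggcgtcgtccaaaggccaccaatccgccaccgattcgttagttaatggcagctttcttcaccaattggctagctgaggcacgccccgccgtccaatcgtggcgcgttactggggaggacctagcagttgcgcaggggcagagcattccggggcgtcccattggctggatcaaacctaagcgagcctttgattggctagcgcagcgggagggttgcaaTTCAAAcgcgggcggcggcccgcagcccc
Chaf1a: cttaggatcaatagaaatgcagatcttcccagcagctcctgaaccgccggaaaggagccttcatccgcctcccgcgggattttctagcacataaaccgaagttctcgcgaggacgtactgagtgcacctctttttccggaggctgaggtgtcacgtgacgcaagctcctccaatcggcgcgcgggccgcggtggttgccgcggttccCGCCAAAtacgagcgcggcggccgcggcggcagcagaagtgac
Mcm5: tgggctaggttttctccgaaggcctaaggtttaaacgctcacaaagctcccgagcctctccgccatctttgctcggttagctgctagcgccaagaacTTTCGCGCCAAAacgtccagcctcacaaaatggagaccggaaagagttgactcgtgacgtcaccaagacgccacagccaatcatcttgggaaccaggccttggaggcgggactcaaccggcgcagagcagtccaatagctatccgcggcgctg
The CHR letters nearest the start begin 23 bases before it in Top2a and 29 in Ube2c, and the E2F-type letters 43 bases before it in Chaf1a and 148 in Mcm5. Ube2c, a ubiquitin-conjugating enzyme of mitotic exit, was at 4.32, 4.02 and 3.99 CPM in the spleen, against 154, 168 and 180 CPM in the thymus (log2 -5.34 ± 0.09). Mcm5, a subunit of the replicative helicase, was at 78.7, 74.2 and 77.5 CPM in the spleen, against 672, 626 and 652 CPM in the thymus (log2 -3.08 ± 0.06).

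Egress and homing genes were higher in the spleen. Of 26 listed genes, 14 (53.8%) were called large and higher, against 9.71% of all genes, and 0 lower, with a median of 1.37. Klf2, the transcription factor that switches on S1pr1, was at 609, 535 and 564 CPM in the spleen, against 113, 108 and 94.9 CPM in the thymus (log2 2.43 ± 0.08, adjusted p 1.55e-09). S1pr1, the sphingosine 1-phosphate receptor needed to leave the thymus, was at 688, 708 and 752 CPM in the spleen, against 83.2, 102 and 118 CPM in the thymus (log2 2.83 ± 0.11). No library of either tissue overlapped with the other for Klf2 or S1pr1, as for 36.9% of all genes in this direction.

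Other receptors of the list moved with them. S1pr4 was higher by a log2 of 2.29 ± 0.11, and S1pr5 was at 7.28, 12.2 and 3.65 CPM in the spleen and at most 0.0889 CPM in the thymus. Gpr183, the oxysterol receptor EBI2, was at 154, 119 and 141 CPM in the spleen, against 14.7, 9.51 and 10.9 CPM in the thymus (log2 3.56 ± 0.14). Cxcr3, a chemokine receptor of memory and effector cells, was higher by 4.28 ± 0.22 and the integrin chain Itgb7 by 2.04 ± 0.08. Cd69, an activation receptor that pulls S1pr1 from the surface, was higher in the spleen as well, at 648, 588 and 752 CPM, against 145, 108 and 75.1 CPM in the thymus (log2 2.60 ± 0.18). Further large calls included Klf3, Foxo1, Dock2 and Itgb2, with log2 fold changes from 1.26 to 1.92. Itgb1, Gnai2 and Itgae did not pass either test, and Ezr (log2 -0.15) and Ccr9 were lower by the test for any difference.

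Naive T cell genes were mostly higher, and the transcription factors among them went both ways. Of 16 listed genes, 10 (62.5%) were called large and higher and 1 (6.25%) lower, against 9.71% and 15.7% of all genes. The median was 1.48. Il7r, the receptor chain for the survival cytokine interleukin-7, was at 586, 674 and 631 CPM in the spleen, against 84.3, 105 and 85.0 CPM in the thymus (log2 2.79 ± 0.09, adjusted p 9.93e-10). Il6ra, a chain of the interleukin-6 receptor, was at 187, 175 and 185 CPM in the spleen, against 9.19, 12.6 and 13.5 CPM in the thymus (log2 3.96 ± 0.11). Dapl1 was higher by 4.46 ± 0.21 and the Tec kinase Txk by 2.34 ± 0.09. The transcription factors Foxp1 and Bach2 were higher by 1.17 ± 0.06 and 1.48 ± 0.15. Tcf7, which encodes TCF1, a factor of both thymocytes and naive cells, was at 1252, 1194 and 1320 CPM in the spleen, against 2504, 2445 and 2579 CPM in the thymus (log2 -0.999 ± 0.053). It was lower by the test for any difference (adjusted p 5.24e-09) and missed the 2-fold test (adjusted p 0.709). Lef1, its partner, was higher by 0.48 ± 0.06 and Satb1, a chromatin organiser of thymocytes, lower by -0.75 ± 0.05, both short of 2-fold. Ly6c1 was lower by -2.29 ± 0.32 at under 5 CPM, and it shares reads with the near-identical Ly6c2, so its value is uncertain.

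Quiescence genes rose in part. Of 20 listed genes, 10 (50%) were called large and higher and 1 (5%) lower, against 9.71% and 15.7% of all genes. The median was 1.15. Btg1, an antiproliferative gene of resting lymphocytes, was at 2143, 1922 and 2134 CPM in the spleen, against 543, 550 and 500 CPM in the thymus (log2 1.96 ± 0.06). Vsir, which encodes VISTA, a checkpoint of naive T cells, was higher by 2.22 ± 0.07, Slfn2 by 1.77 ± 0.06 and Foxo1 by 1.47 ± 0.05. Cdkn2c, an inhibitor of CDK4 and CDK6, went the other way, at 8.41, 7.73 and 6.55 CPM in the spleen, against 93.5, 95.2 and 101 CPM in the thymus (log2 -3.67 ± 0.09).

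Effector and cytotoxic genes were higher in the spleen, with exceptions. Of 36 listed genes, 29 (80.6%) were called large and higher and 2 (5.56%) lower, against 9.71% and 15.7% of all genes. The median was 2.74. Eomes, a T-box factor of memory CD8 cells, was at 89.4, 88.8 and 87.6 CPM in the spleen, against 3.32, 3.83 and 3.38 CPM in the thymus (log2 4.65 ± 0.08, adjusted p 2.01e-12). Ly6c2, whose value is uncertain as it shares reads with Ly6c1, was higher by 3.52 ± 0.07, the lectin-like receptor gene Klrd1 by 3.91 ± 0.08, the cystatin gene Cst7 by 2.86 ± 0.08 and Il2rb, the shared chain of the interleukin-2 and interleukin-15 receptors, by 2.48 ± 0.07. Anxa2, an annexin of activated cells, was lower, at 33.8, 27.4 and 27.7 CPM in the spleen, against 272, 272 and 257 CPM in the thymus (log2 -3.17 ± 0.08).

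Further members were picked for description after their values were seen. Gzma, granzyme A, was the other member called large and lower in the spleen, at 27.0, 36.1 and 9.50 CPM, against 144, 112 and 112 CPM in the thymus (log2 -2.34 ± 0.31, adjusted p 0.000686). Gzmb, granzyme B, went up instead, at 17.7, 21.0 and 6.40 CPM in the spleen, against 1.66, 2.56 and 2.26 CPM in the thymus (log2 2.80 ± 0.37). Prf1, perforin, was higher by 2.68 ± 0.10, Tbx21 (T-bet) by 3.78 ± 0.15, Ifng by 3.72 ± 0.31 and the chemokine Ccl5 by 4.16 ± 0.26. Library 71 had the lowest spleen value of Gzma, Gzmb, Klrg1, Cx3cr1 and Ccl5. Klrg1, a receptor of terminal effector cells, was at 3.49, 6.71 and 1.55 CPM in the spleen, against 0, 0.0284 and 0 CPM in the thymus. Without library 71 the count of large higher members was 30.

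**Figure D3:**
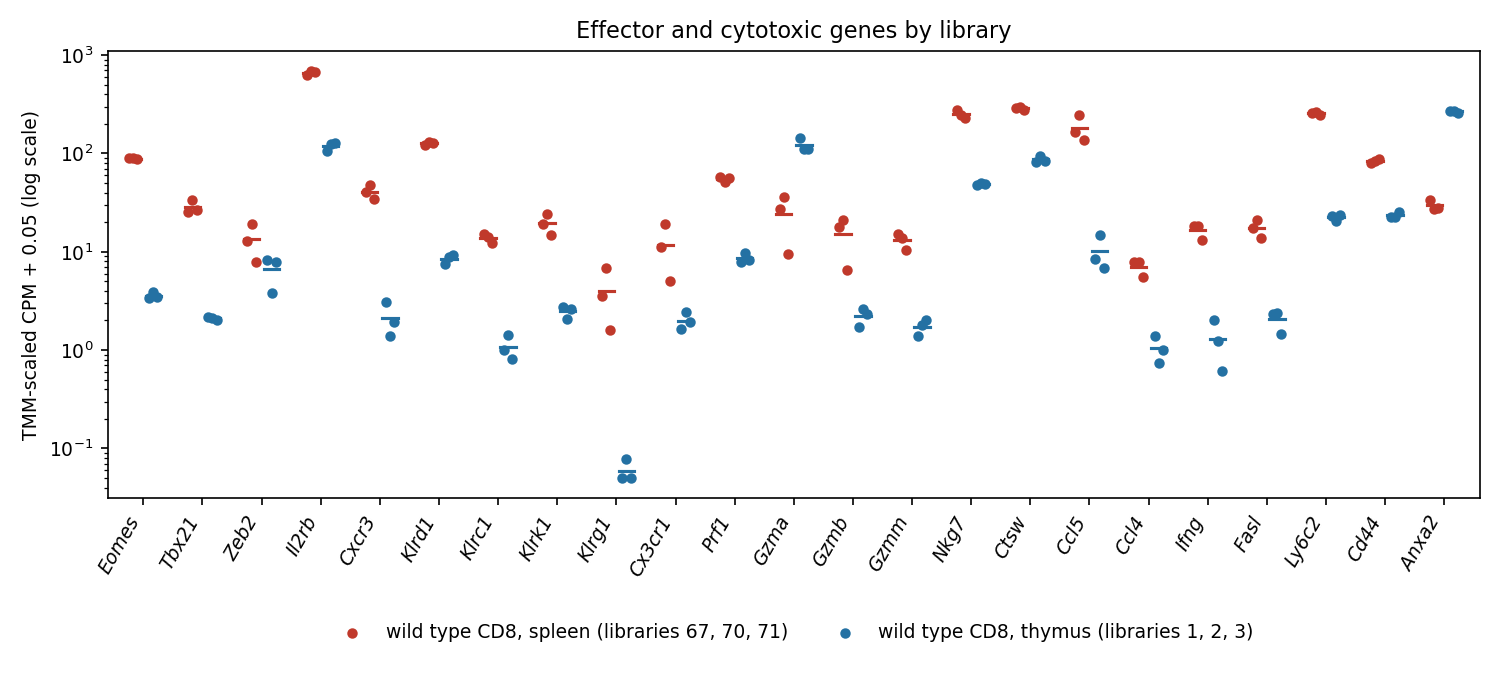
Levels of 23 effector and cytotoxic genes in each wild type CD8 library, on a log axis of TMM-scaled CPM with 0.05 added, spleen in red on the left of each pair and thymus in blue on the right. Points are libraries and short lines are arithmetic means of 3. Spleen points lie above thymus points except for Gzma and Anxa2, and for Zeb2, where the libraries of the tissues overlap.

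Cytokine receptors and their kinases changed as a mixed group. Of 34 listed genes, 17 (50%) were called large and higher and 3 (8.82%) lower, against 9.71% and 15.7% of all genes. The median was 1.14. Besides the interleukin-18 receptor, Il4ra was higher by 2.26 ± 0.06 and Stat4, which relays interleukin-12 signals, by 2.31 ± 0.05. Il18r1 was at 152, 174 and 165 CPM in the spleen, against 4.12, 4.20 and 3.55 CPM in the thymus. Il12rb2, the signalling chain of the interleukin-12 receptor, was lower, at 6.18, 5.27 and 4.73 CPM in the spleen, against 54.6, 53.5 and 55.5 CPM in the thymus (log2 -3.34 ± 0.10). The other members called large and lower were Socs2 and Il2ra, the high affinity chain of the interleukin-2 receptor, which is also carried by early thymocytes. Il2ra was at 3.75, 3.16 and 3.06 CPM in the spleen, against 38.3, 16.8 and 33.0 CPM in the thymus (log2 -3.14 ± 0.27).

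Receptor signalling genes had a median closer to that of all genes. Of 38 listed genes, 12 (31.6%) were called large and higher and 2 (5.26%) lower, against 9.71% and 15.7% of all genes. The median was 0.66, and without library 71 the count higher was 9. Dgka, a diacylglycerol kinase that limits receptor signals, was at 1514, 1482 and 1479 CPM in the spleen, against 262, 341 and 307 CPM in the thymus (log2 2.30 ± 0.08). Prkcq, protein kinase C theta, was higher by 1.85 ± 0.06, and Malt1, which links the receptor to NF-kB, by 1.94 ± 0.09. Trat1, an adaptor of the receptor complex, was lower by -1.79 ± 0.07. Of 22 costimulatory and inhibitory receptor genes, 8 (36.4%) were called large and higher and 1 (4.55%) lower. Tnfsf8 (CD30 ligand) was higher by 2.495 ± 0.125, Slamf7 by 2.21 ± 0.11 and Btla by 1.79 ± 0.08. Pdcd1, the gene of PD-1, was the lower one, at 2.77, 4.61 and 4.50 CPM in the spleen, against 14.58, 15.36 and 13.97 CPM in the thymus.

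The GIMAP genes, a cluster of GTPases that keep peripheral T cells alive, were all higher. Of the family, 8 of 8 were called large and higher, against 9.71% of all genes, with a median of 2.17. Gimap6 was at 970, 877 and 912 CPM in the spleen, against 180, 185 and 177 CPM in the thymus (log2 2.35 ± 0.06, adjusted p 1.69e-10). Gimap3 had the largest of the 8 log2 fold changes, 2.49 ± 0.11, and Gimap9 the smallest, 1.17 ± 0.07. Gimap3 and Gimap5 are close in sequence, so reads may be split between them.

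MHC class I genes that were called large were higher in the spleen. Of 20 listed class I and processing genes, 18 passed the filter. Of these, 8 (44.4%) were called large and higher, against 9.71% of all genes, and 0 lower. By the test for any difference 12 were higher and 4 lower, against 35.2% and 38.6% of all genes. Without the 5 members near 0 in both CD8 tables, 8 of 13 were called large and higher. Nlrc5, the transactivator of class I genes, was at 640, 680 and 705 CPM in the spleen, against 167, 211 and 188 CPM in the thymus (log2 1.84 ± 0.08). B2m, the light chain of class I, was at 1862, 1629 and 1672 CPM in the spleen, against 685, 679 and 627 CPM in the thymus (log2 1.37 ± 0.06). H2-K1 was higher by 2.18 ± 0.12, but it and the H2-Q and H2-T genes share reads with near copies and H2-D1 was listed near 0, so the values of single class I heavy chains are uncertain.

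Interferon-induced genes rose by small steps. Of 39 listed genes, 13 (33.3%) were called large and higher and 1 (2.56%) lower, against 9.71% and 15.7% of all genes. By the test for any difference 34 were higher, against 35.2% of all genes, and the median was 0.97. Samhd1, a dNTP hydrolase, was at 459, 436 and 460 CPM in the spleen, against 71.6, 105 and 95.5 CPM in the thymus (log2 2.31 ± 0.11). Gbp2, a guanylate-binding protein induced by interferon, was at 117, 88.3 and 95.9 CPM in the spleen, against 29.7, 30.6 and 27.5 CPM in the thymus (log2 1.78 ± 0.10). Ly6e, an antigen of immature thymocytes, was lower by -1.40 ± 0.05. The core of the interferon-stimulated response element (GAAA, any 2 bases, then GAAA, on either strand) stood in 17 of 26 listed genes with a window (65.4%), against 1079 of 27025 symbols (3.99%). The 250 bases before the start are shown for 2 called genes with that match, in capitals: Gbp2 (chr3:142620413-142620662, plus strand) and Irgm1, an immunity-related GTPase (chr11:48871421-48871670, minus strand), whose matches overlap.
Gbp2: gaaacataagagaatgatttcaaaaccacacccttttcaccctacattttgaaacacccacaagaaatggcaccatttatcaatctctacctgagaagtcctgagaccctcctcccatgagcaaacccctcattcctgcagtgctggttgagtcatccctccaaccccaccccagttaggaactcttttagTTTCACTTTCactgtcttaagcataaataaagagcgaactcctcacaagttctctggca
Irgm1: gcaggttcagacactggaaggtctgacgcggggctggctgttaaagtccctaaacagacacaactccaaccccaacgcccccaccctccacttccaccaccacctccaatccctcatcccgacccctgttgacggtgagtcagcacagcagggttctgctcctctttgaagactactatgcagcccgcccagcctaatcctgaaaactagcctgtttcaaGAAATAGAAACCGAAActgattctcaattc
The last match begins 59 bases before the start in Gbp2 and 24 in Irgm1. Irgm1 was at 84.2, 86.7 and 76.3 CPM in the spleen, against 36.41, 35.03 and 30.78 CPM in the thymus (log2 1.27 ± 0.08).

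Most immediate early genes were higher and some chaperones lower. Of 25 listed immediate early and heat shock genes, 23 passed the filter, with a median of 1.51. Of these, 13 (56.5%) were called large and higher and 4 (17.4%) lower, against 9.71% and 15.7% of all genes. Among the 16 immediate early genes 13 were called large and higher and 0 lower, and among the 7 heat shock genes 0 higher and 4 lower. Junb was at 1812, 1991 and 1983 CPM in the spleen, against 253, 163 and 198 CPM in the thymus (log2 3.23 ± 0.13), and Jun was higher by 2.81 ± 0.18, Fosl2 by 2.65 ± 0.15 and Ier2 by 2.12 ± 0.11. Hspd1 and Hsp90aa1, a mitochondrial and a cytosolic chaperone, were lower by -1.92 ± 0.08 and -1.897 ± 0.088. Junb, Jun and Ier2 did not overlap between the tissues, as for 36.9% of all genes in this direction. Thymus library 1 was the highest of its group for each of the 3.

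Survival genes were called in both directions. Of 25 listed BCL2 family and caspase genes, 24 passed the filter, 5 (20.8%) were called large and higher and 3 (12.5%) lower, against 9.71% and 15.7% of all genes. Bcl2, the survival gene of mature T cells, was at 320, 352 and 373 CPM in the spleen, against 112, 142 and 122 CPM in the thymus (log2 1.47 ± 0.09). Bcl2l1 went the other way (log2 -1.75), with the death inducer Bmf (-2.20 ± 0.15). Of 15 Notch pathway genes, 2 (13.3%) were called large and higher and 4 (26.7%) lower. Notch3, a receptor of early thymocytes, was at 0.341, 2.07 and 0.310 CPM in the spleen, against 108, 120 and 122 CPM in the thymus (log2 -7.01 ± 0.30). Dtx1, a Notch target and regulator, was at 423, 368 and 434 CPM in the spleen, against 72.9, 79.5 and 70.5 CPM in the thymus (log2 2.46 ± 0.07), and Notch1 was lower by -0.77 ± 0.07.

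**Figure D4:**
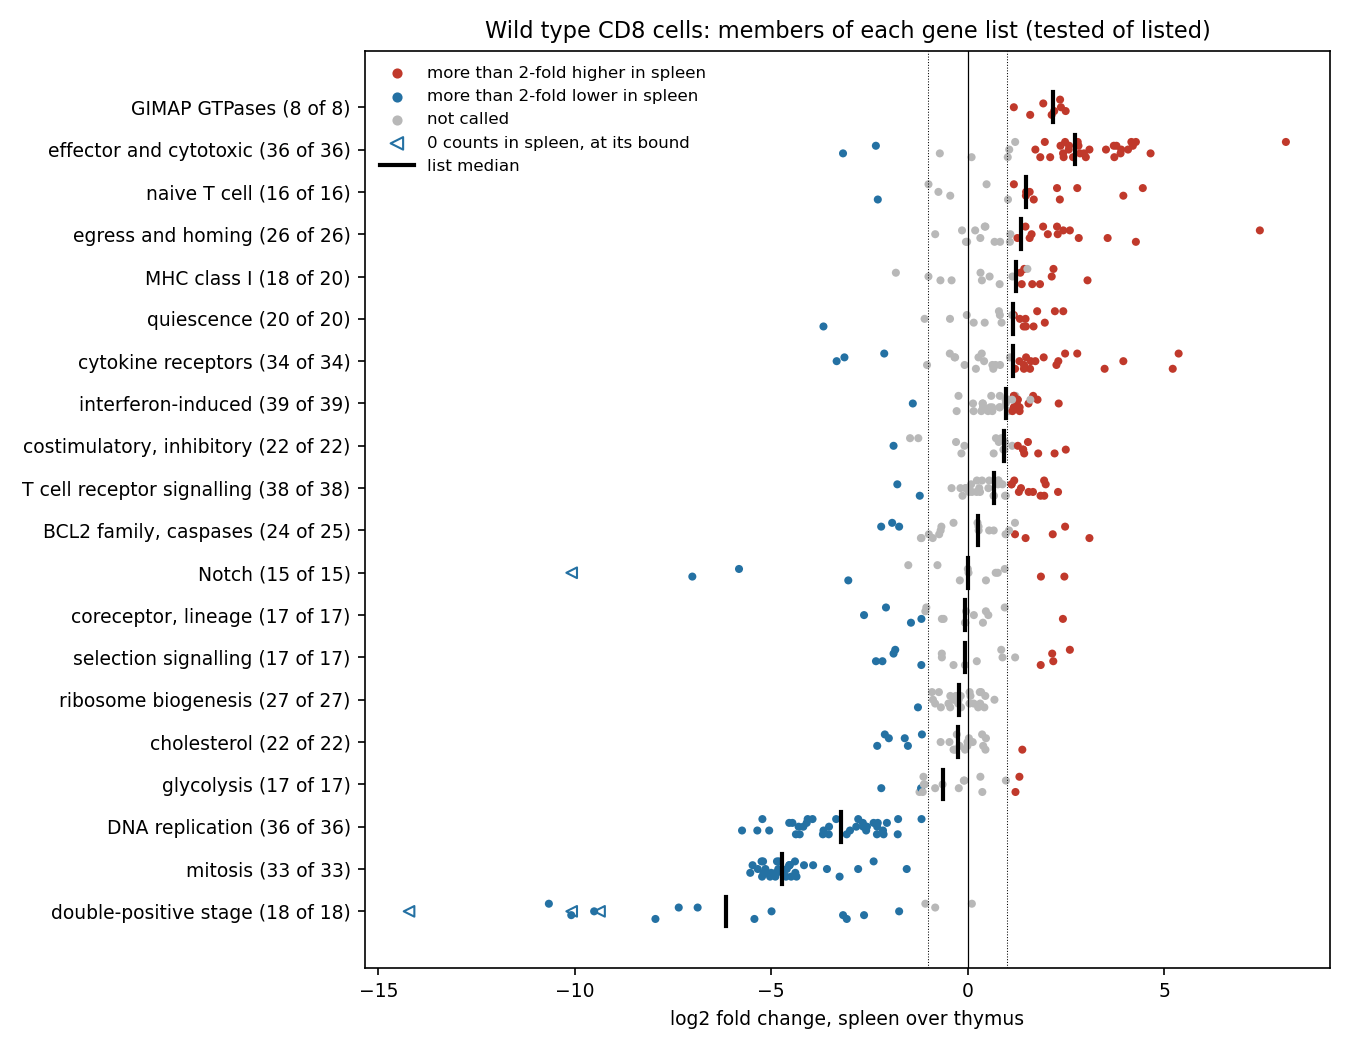
Each point is 1 listed gene in wild type CD8 cells, with its log2 fold change, spleen over thymus, on the x axis and its list on the y axis. Numbers give tested of listed genes, black bars the list medians, dotted lines a fold of 2, and open triangles genes with 0 spleen counts, drawn at the bound that 3 counts allow. The 3 lists at the bottom, DNA replication, mitosis and the double-positive stage, have medians from -6.15 to -3.22, and the GIMAP and effector lists have medians of 2.17 and 2.74.

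Markers of other cells were low, and those called large differed in direction between cell types. B cell markers summed to 40.6 to 58.4 CPM in the spleen and 242 to 363 CPM in the thymus over 17 genes, 16 of which passed the filter: 6 were called large and lower and 0 higher. Most of the thymus sum lay in Cd74 and Ly6d, while the defining genes Cd79a, Ms4a1 and Pax5 stayed under 8 CPM in every library. Ighm was at 0 in all 6, but so were Trbc1 and Trbc2, which T cells make. The 0 of Ighm therefore cannot show that B cells were absent. Cd79b was at 13.9, 13.03 and 11.7 CPM in the spleen, against 9.16, 5.82 and 7.20 CPM in the thymus, higher by the test for any difference (log2 0.80 ± 0.17). Myeloid markers summed to 39.7 to 65.8 CPM in the spleen and 50.7 to 66.2 CPM in the thymus over 17 genes, with Mpeg1 the highest in the thymus. Of 13 tested, 6 were called large and higher and 1, Mpeg1, lower, 10 were higher by the test for any difference, and the median was 2.02. Itgam, an integrin of myeloid cells, was at 4.13, 6.28 and 2.99 CPM in the spleen, against 0.770, 0.653 and 1.09 CPM in the thymus (log2 2.42 ± 0.33), and the macrophage genes Adgre1 and C1qc were higher by 2.61 ± 0.50 and 2.96 ± 0.60. S100a8 and S100a9 were under 0.5 CPM. Natural killer and innate markers summed to 124 to 127 CPM in the spleen and 20.5 to 24.5 CPM in the thymus over 12 genes, 4 higher and 1 lower. Most of that sum is Eomes, which CD8 T cells also make, and Ncr1 was under 0.7 CPM in every library.

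Markers of the CD4 lineage summed to 201 to 244 CPM in the spleen and 363 to 405 CPM in the thymus over 9 genes, with Ikzf2 highest. Thymic stroma markers summed to 113 to 131 CPM in the spleen and 51.7 to 58.0 CPM in the thymus over 11 genes, nearly all of it Ly75, which T cells also carry, while Foxn1, Krt5 and Pdpn were at 0 in all 6 libraries. Erythroid and platelet markers summed to 7.84 to 10.03 CPM in the spleen and 4.40 to 5.87 CPM in the thymus over 10 genes. The part of B cell, myeloid and CD4 cells in the results above was not tested.

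The same contrast in CKO mice shared no library with the wild type one. Its spleen and thymus libraries came from the same separate tables as the wild type ones. A difference between the tables would therefore recur in it, and tissue and table cannot be told apart in CKO either. In thymus CD8 libraries Prmt5 was at 115 to 117 CPM of the library total in CKO, against 134 to 149 CPM in wild type. In spleen CD8 libraries it was at 29.1 to 41.3 CPM in CKO, against 60.9 to 66.3 CPM in wild type. The Prmt5 transcript was thus reduced less in CKO thymus than in CKO spleen CD8 libraries, and loss of the protein was not tested. In CKO cells 1625 of 14708 genes (11.0%) were called large and higher in the spleen and 2064 (14%) lower. Over 14285 genes tested in both genotypes, 1113 were called higher in both, which is 72.2% of the CKO calls and 80.9% of the wild type calls, and 1806 lower in both, which is 90.1% and 81.7%. By Ddx3y, 2 of the 3 CKO thymus CD8 libraries were female, as were the 3 CKO spleen CD8 libraries. Without the male one, replicate 1, the CKO contrast called 1430 genes higher and 1904 lower over 14405 genes tested with wild type, and 1075 and 1757 of them were called the same way in wild type. In those female CKO libraries Mki67 (-3.59), S1pr1 (2.31), Klf2 (2.46), Eomes (5.13) and Gimap6 (2.23) were called large, and Ccr7 was at 1.21 ± 0.14 (adjusted p 0.0915).

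The sizes of the tissue differences were then compared between the genotypes in 1 fit over 12 CD8 libraries. Of 15544 genes, 851 (5.47%) had a more positive spleen over thymus difference in CKO and 405 (2.61%) a more negative one. The more negative count was 250 without spleen wild type library 71, 255, 236 and 231 without thymus CKO library 1, 2 and 3, and 235 and 239 without thymus wild type library 2 and 3. Among mitosis genes, 28 of 33 were more positive in CKO and 0 more negative, with a median difference of 1.11, and 13 of 36 replication genes were too. Mki67 was at 216, 151 and 241 CPM in CKO spleen cells and 2438, 2490 and 2345 CPM in CKO thymus cells, so its log2 fold change was -3.58 in CKO and -4.97 in wild type (difference 1.39 ± 0.17, adjusted p 0.000187). Effector genes followed, with 22 of 36 more positive in CKO and 0 more negative, and a median difference of 1.29. Gzma, which was lower in wild type spleen, was at 125, 77.5 and 202 CPM in CKO spleen cells and 135.0, 122.9 and 118.8 CPM in CKO thymus cells.

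Of the egress, GIMAP and DP genes, 3 of 26 (11.5%), 1 of 8 (12.5%) and 3 of 18 (16.7%) were more positive in CKO and 0 more negative. Of 89 ribosomal protein genes tested, 57 (64%) were more negative in CKO and 0 more positive. Of all genes, 5.47% were more positive in CKO and 2.61% more negative. CKO thymus libraries were mixed in sex and wild type ones male, and Cre was carried by CKO mice only, so genotype, Cre and sex cannot be told apart here.

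**Figure D5:**
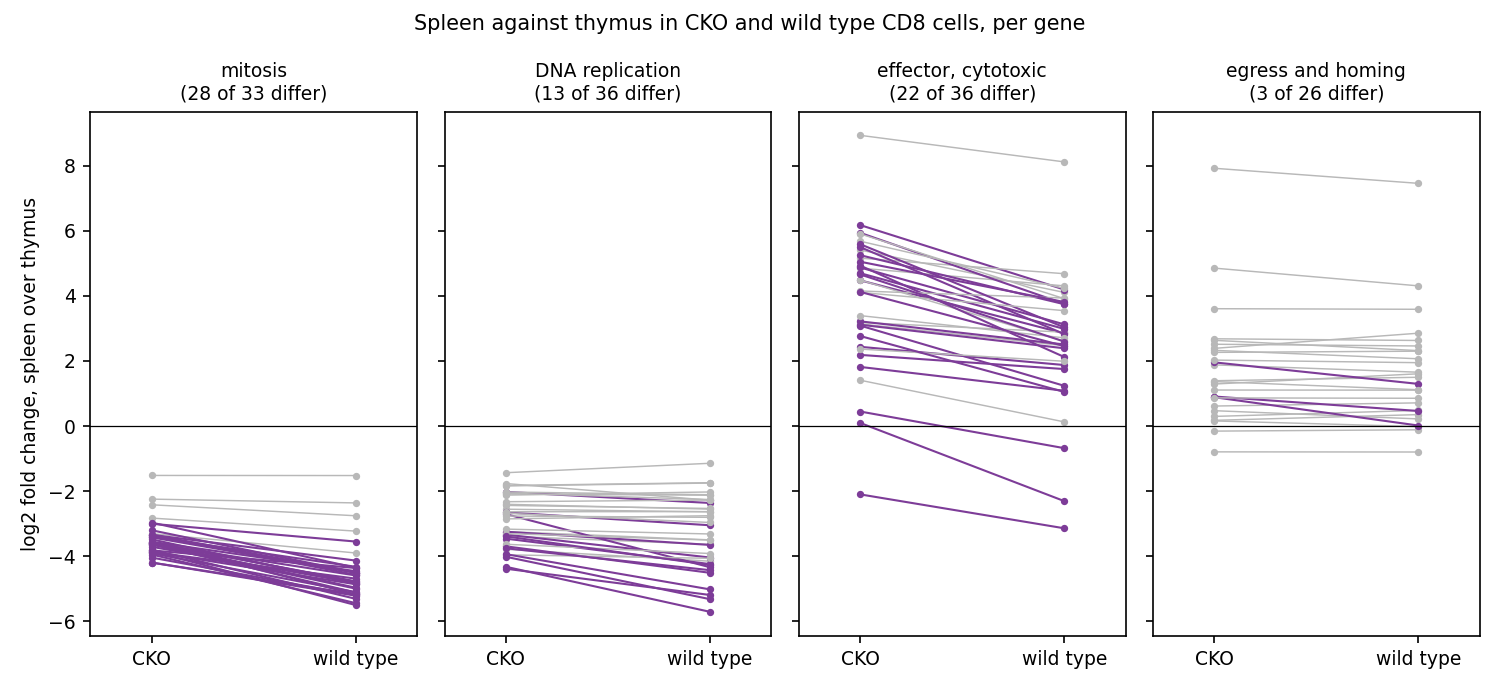
Log2 fold change, spleen over thymus, on the y axis for each gene of 4 lists, CKO on the left and wild type on the right of each panel, from 1 fit over 12 CD8 libraries. Lines join the 2 values of a gene and are purple where the difference had an adjusted p under 0.05: 28 of 33 mitosis, 13 of 36 replication, 22 of 36 effector and 3 of 26 egress genes.

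The contrast was also set beside that of wild type CD4 cells, spleen over thymus, which used 12 libraries from 3 tables over 20730 shared symbols. Of 12570 genes tested, 3355 (26.7%) had a more positive difference in CD8 cells and 4186 (33.3%) a more negative one. These counts include symbols with very different levels between the tables. Of these, 37 symbols with at least 50 CPM in both CD8 tables were more than 16-fold lower in the table of thymus CD4 and DP cells. The 94 symbols described above were low in both CD8 tables instead. Mitosis genes were more negative in CD8 cells in 32 of 33 cases, with a median difference of -2.26, and replication genes in 33 of 36 cases. Mki67 was at 61.5 to 75.7 CPM in CD8 and 94.0 to 100.1 CPM in CD4 spleen libraries, and at 2159 to 2353 CPM in CD8 and 330 to 504 CPM in CD4 thymus libraries, in CPM of the library total. The libraries labelled thymus CD4 had 1134 to 1543 CPM of Cd8a, against their label, and 731 to 1771 CPM of Rag1. Ddx3y was at 159 to 206 CPM in CD8 and 1.05 to 171 CPM in CD4 thymus libraries. In spleen libraries it was at most 0.221 CPM in CD8 and 0.0769 CPM in CD4. Sex was thus mixed in the thymus CD4 libraries only. Lineage, table, sex and the makeup of these CD4 libraries cannot be told apart in these values.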

How the data were processed

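Poly(A) RNA of sorted cells of each sample went into 1 library that keeps the strand (per the labels' protocols). The authors deposited raw counts per gene symbol; HISAT2, HTSeq and the build GRCm38 are named in the submitters' processing notes. The sources used here give no tool version, annotation or strand setting. Groups came from the labels. The labels do not say whether the numbers stand for separate animals, so p-values measure the spread between these samples.

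The 2 CD8 tables were joined by symbol. Counts were tested with edgeR 4.0.16 (R 4.3.3): filterByExpr, TMM scaling, and a quasi-likelihood test whose p-values were adjusted by Benjamini-Hochberg (threshold 0.05), for any difference and, with glmTreat, for more than 2-fold. Fits used the 6 libraries of a contrast, or 12 for differences between contrasts. A gene with 10 counts was at 0.290 to 0.384 CPM in the wild type CD8 libraries, and intervals and floors cover counting error only. DESeq2 1.42.0, limma 3.58.1, other scalings and filters, the replicate number as a block and leaving out each library were alternatives. The script was tested on simulated data. Replicates differed beyond sampling noise, with a chi-square per degree of freedom from 6.39 to 11.4 within groups. Genomic positions and opposite-strand overlaps came from GENCODE M21, which matched 33980 symbols.

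The comparison and the gene lists were chosen with earlier results of these data known. Named by rule were the marker and coreceptor genes, the 12 genes per direction with the largest fold among those with 20 CPM or more in the higher group and no overlap (without gene models, pseudogenes and receptor segments), the 6 members of each list with the smallest p, any member of the stage, lineage, egress and naive lists, and 5 genes per side of each difference between contrasts. Gene names given beyond this rule, among them Gzma, Gzmb, Klrg1, Gimap9, Il2ra, Socs2, Notch1, Mcm5, Ube2c and Irgm1, were chosen after their values were seen. Some named genes are not reported here.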

Additional observations from a re-analysis of the deposited data

Results flagged for a closer look

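These genes had a spleen over thymus difference that was itself different between the CKO and wild type contrasts, or between the CD8 and CD4 contrasts of wild type mice, by the interaction term of edgeR's quasi-likelihood test (adjusted p from 4.79e-06 to 9.99e-05 between genotypes). Among the 5 named on the positive side, Iqgap3 and Cenpf are division genes. Iqgap3 averaged 3.97 CPM in CKO spleen cells and 74.1 CPM in CKO thymus cells, and 1.01 and 64.6 CPM in the same wild type tissues, a difference of 1.78 ± 0.16 (log2, SE). Cenpf, a kinetochore protein, differed by 1.60 ± 0.14. Adcy6, an adenylyl cyclase, averaged 106 CPM in CKO spleen cells and 176 CPM in CKO thymus cells, and 38.3 and 181 CPM in wild type (difference 1.51 ± 0.11). Tcrg, a gamma chain locus of the T cell receptor, averaged 50.4 and 38.2 CPM in CKO spleen and thymus cells, and 7.52 and 33.1 CPM in wild type (difference 2.54 ± 0.24). Orc4, a subunit of the origin recognition complex, differed by 1.05 ± 0.10. For all 5 the thymus means of the genotypes lay closer together than the spleen means when taken as ratios.

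On the negative side, Tpm3-rs7, a tropomyosin 3 related sequence that may share reads with Tpm3, averaged 71.3 and 52.9 CPM in CKO spleen and thymus cells, and 232 and 57.9 CPM in wild type (difference -1.57 ± 0.11). Rpsa, a ribosomal protein, differed by -0.59 ± 0.06 and its pseudogene Rpsa-ps2, whose reads cannot be kept apart from it with certainty, by -0.75 ± 0.08. COX1, which the mitochondrial genome encodes, differed by -0.55 ± 0.06.

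Between CD8 and CD4 cells, the 10 genes named by rule are mostly genes with very different levels between the tables. Laptm5 (difference 6.79), Gabbr1 (7.64), Cd2 (7.03) and Pfn1 (5.71) were low in both CD8-holding tables: Cd2 averaged 1.79 CPM in the thymus CD8 table and 6.04 CPM in the spleen table, against 198 CPM in the table of thymus DP and CD4 cells. Atp5a1 (-15.42), Hnrnpu (-14.64), Zc3h11a (-13.55), Arf4 (-12.80) and Celf1 (-16.43) were near 0 in the table of thymus DP and CD4 cells, so the size of these fitted values depends on the fit and is no measure of the cells. Cd8a differed by 8.98: it averaged 1300 CPM in CD8 and 3.56 CPM in CD4 spleen cells, and 921 CPM in CD8 and 1274 CPM in CD4 thymus cells.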

How the results depend on the processing

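No paired analysis was possible because the wild type spleen and thymus CD8 libraries share no replicate number. With the replicate block, fitted with limma, the CKO minus wild type difference called 780 genes positive and 435 negative. With edgeR without it these were 851 and 405. The CD8 minus CD4 difference with the block called 3623 and 4380. The correlation within numbers was 0.0947 and 0.194. The block joined libraries of the same tissue and number. In the genotype fit only thymus libraries shared numbers, across genotypes, so such a block cannot be a single animal. In the CD8 and CD4 fit only spleen libraries shared numbers, which the edgeR test did not use. Keeping only genes with 5 CPM or more in 3 libraries gave 1341 large lower calls in wild type and 1289 in CKO, with fewer genes tested. A tested log2 fold of 2 gave 355 higher and 1148 lower. Leaving out 1 library at a time, large calls ranged from 1329 to 1408 higher and 2207 to 2348 lower, calls of any size from 4935 to 5030 and 5470 to 5729, and CKO large calls from 1455 to 1609 and 1946 to 2213. The CKO minus wild type difference ranged from 585 to 984 positive and 231 to 529 negative, with 250 without spleen wild type 71, 255, 236 and 231 without thymus CKO 1, 2 and 3, and 235 and 239 without thymus wild type 2 and 3. The CD8 minus CD4 difference ranged from 3143 to 3434 and 3787 to 4235. DESeq2 called 1088 higher and 1903 lower in wild type. The median of all genes was 0.06 with upper quartile scaling and -0.10 with library totals alone. Of the named genes' values, 3594 kept their direction and call, 109 lost the call, 15 gained it and 14 changed sign, none of them past the threshold. With upper quartile scaling these were Itgb1 (0.0747), Ikzf3 (0.0470), Tox (0.0187), Arf4 (0.0454), Bcl11b (0.0301) and Gnai2 (0.0433), with 12 libraries in 1 fit Itgb1 (0.0151), and with 1 library left out at a time Itgb1 (from -0.174 to 0.0977), Ikzf3 (-0.116 to 0.0170), Tox (-0.178 to 0.00551), Arf4 (-0.0893 to 0.0113) and Cd83 (-0.574 to 0.0753). The cause was not tested. Depth limits what can be said of genes with few counts in 1 tissue, and of Cd4, whose spleen counts lie mostly in library 71.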

Other observations

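Metabolic groups moved less than those of division. Of 22 listed genes of cholesterol synthesis and transport, 1 (4.55%) was called large and higher in the spleen and 6 (27.3%) lower. The shares of all genes were 9.71% and 15.7%. The median log2 fold change of the list was -0.24. Tmem97, a regulator of sterol transport, was lower by -2.30 and Idi1, an enzyme of sterol synthesis, by -2.11, while Abca1, which exports cholesterol from cells, was at 73.0, 97.0 and 82.2 CPM in the spleen, against 30.9, 32.6 and 32.8 CPM in the thymus (log2 1.39). Of 17 glycolysis genes, 2 (11.8%) were called large and higher and 2 (11.8%) lower, close to the shares of all genes. Tpi1, triosephosphate isomerase, was at 37.4, 38.4 and 39.9 CPM in the spleen, against 184, 172 and 176 CPM in the thymus, and Slc2a1, the glucose transporter GLUT1, was higher by 1.31. Without library 71 the count of lower glycolysis genes was 4. Of 27 genes of ribosome assembly, 1 (3.7%) was called large and lower and 26 were not called. Ribosomal protein genes themselves were slightly higher: 78 of 89 by the test for any difference, 9 of them past 2-fold, with a median of 0.64. Of all genes, 35.2% were higher by the test for any difference and 9.71% past 2-fold.

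Genes that signal during selection split. Of 17 listed, 4 (23.5%) were called large and higher and 5 (29.4%) lower, against 9.71% and 15.7% of all genes, with a median of -0.07. Cd53, a tetraspanin, was at 606, 620 and 603 CPM in the spleen, against 132, 149 and 131 CPM in the thymus, and Egr2 was higher by 2.18. Ikzf2, the factor Helios, was at 57.0, 48.1 and 70.2 CPM in the spleen, against 190, 213 and 227 CPM in the thymus.

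Libraries of 1 tissue were close to each other. Of 6973 genes with 20 CPM or more in the spleen, the median ratio of the highest to the lowest library was 1.11, and 11 genes had a ratio over 2. Rasgrp2, an activator of Rap1, was at 12.7, 6.63 and 62.8 CPM, so library 71, which also had the most Cd4, stood apart for it. Of 7260 genes in the thymus, 6 had a ratio over 2, among them Fosb at 201, 60.7 and 51.4 CPM and Il2ra; library 1 was the highest for both, and for Fos and Cd69. These genes were named after their values were seen.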
